A study of Mus musculus with 30 samples.

Results

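The repeats described here are the genomic copies annotated as RLTR13, ERVB4, RLTR44 or RLTR45, all of them mouse endogenous retroviruses of the ERVK class. They were chosen by name alone: every repeat copy whose name starts with one of these 4 stems, which gave 3277 copies under 39 names, of 319797 repeat copies under 1065 names in the table. RLTR13 names held 1881 copies, ERVB4 names 443, RLTR44 names 250 and RLTR45 names 703. Their transcription was followed by TT-seq, which reads nascent RNA tagged by brief exposure of the cells to 4-thiouridine, in a mouse embryonic stem cell line labelled dTKO. All libraries came from this 1 line, whose genotype is given as Suv39h2-/- with Suv39h1fl/fl and Setdb1fl/fl, so cells at 0 h carry the same alleles as the later ones. Cells were collected 0, 3, 12, 24 and 48 h after auxin (100 µg/ml) and dTAG13 (0.5 µM), compounds that trigger the breakdown of degron-tagged proteins. The study asks what happens to transcription when H3K9 methyltransferases are removed; the labels do not say which proteins carry the tags. Each time had 3 libraries, labelled biological repeats, and 0 h is the baseline of every comparison.

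An endogenous retrovirus is flanked by a long terminal repeat (LTR) on each side; the LTR carries promoter and polyadenylation signals, and the internal part between the LTRs (names ending in -int or containing -I) holds the retroviral genes or their remains. Many copies have lost their internal part by recombination and persist as solitary LTRs. In mouse embryonic stem cells, KRAB zinc finger proteins bind such elements and recruit TRIM28 and the methyltransferase SETDB1, which marks them with H3K9 trimethylation, and SUV39H1 and SUV39H2 place the same mark on many repeats. ETn and MusD, named below as neighbours of many members, are related ERVK elements, ETn having lost the retroviral genes.

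Values are scaled reads: reads on a copy over 1 size factor for each library, with no division by length, so they compare times, not elements of different length. Libraries held 37.1 M to 42.3 M reads over all units and 0.837 M to 2.06 M in repeat copies. Members took 8846 to 9721 reads per library at 0 h and 33044 to 34113 at 48 h. Most copies were low: 31 had no read in any library and only 195 had a mean of at least 10 scaled reads, the level required for a test. No source used here says how reads matching several copies were placed, so values of near-identical copies are uncertain. Pairs with exactly equal values in all 15 libraries made up 4 of the 195 copies.

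Sequences of 6 copies are shown because they stand for the kinds of element that the values below turn on; they were read from annotated non-coding exons that cover them (GENCODE M21, GRCm38), 5′ to 3′ on the strand of the repeat. The first pair are short RLTR13G pieces, the kind that carries nearly all RLTR13G signal, with the letters TATAAA in capitals.
RLTR13G_dup59: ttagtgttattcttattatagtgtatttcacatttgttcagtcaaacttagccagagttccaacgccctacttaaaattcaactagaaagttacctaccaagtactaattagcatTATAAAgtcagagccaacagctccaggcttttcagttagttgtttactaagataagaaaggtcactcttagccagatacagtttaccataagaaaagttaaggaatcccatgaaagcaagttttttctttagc
RLTR13G_dup695: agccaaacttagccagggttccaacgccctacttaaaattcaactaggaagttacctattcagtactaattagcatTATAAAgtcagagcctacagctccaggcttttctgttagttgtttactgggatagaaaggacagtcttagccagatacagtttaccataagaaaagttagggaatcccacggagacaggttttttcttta
The first, the whole of chr2:14345789-14346036 on the minus strand, lies in an exon of Gm37697, a gene annotated on the opposite strand, and averaged 42.7 scaled reads at 48 h, against 0 at 0 h. The second, the whole of chr13:62336705-62336910 on the minus strand, in an exon of the lincRNA Gm19792, had none at either time. They were 91.3% identical over 206 aligned bases, so pieces this alike had different signal. TATAAA, searched on the repeat's own strand only, was in 4 of the 5 such pieces that an exon covers whole. Promoter windows of 248 bases (RefSeq, GRCm38.p6) were searched on both strands, and 12.9% hold it on either. The other 4 of the 5 pieces were 89.2% to 91.9% identical to RLTR13G_dup59. They are therefore not separate observations of TATAAA, and the promoter share is given for scale only.

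The next 3 are the starts of longer LTRs, with the initial TG, which begins retroviral LTRs, in capitals.
RLTR45_dup1113: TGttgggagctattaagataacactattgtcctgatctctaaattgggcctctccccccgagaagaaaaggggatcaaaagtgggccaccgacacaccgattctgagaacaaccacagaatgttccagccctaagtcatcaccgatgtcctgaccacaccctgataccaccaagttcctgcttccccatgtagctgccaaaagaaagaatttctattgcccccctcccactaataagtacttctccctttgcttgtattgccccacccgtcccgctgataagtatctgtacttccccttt
RLTR13B2_dup50: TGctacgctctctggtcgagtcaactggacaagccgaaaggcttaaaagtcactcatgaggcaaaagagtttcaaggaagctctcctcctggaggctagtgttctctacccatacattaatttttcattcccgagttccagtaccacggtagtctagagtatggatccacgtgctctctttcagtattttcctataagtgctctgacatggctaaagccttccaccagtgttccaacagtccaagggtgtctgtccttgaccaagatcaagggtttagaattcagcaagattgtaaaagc
RLTR13D3A1_dup365: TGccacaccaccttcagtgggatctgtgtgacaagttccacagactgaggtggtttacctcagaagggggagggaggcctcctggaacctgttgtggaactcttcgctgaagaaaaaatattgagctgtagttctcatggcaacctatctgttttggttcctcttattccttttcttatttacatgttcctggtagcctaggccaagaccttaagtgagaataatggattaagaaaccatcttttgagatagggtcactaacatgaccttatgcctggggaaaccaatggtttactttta
They are chr10:41783087-41783386 in the antisense gene BC048559, chr3:36098428-36098727 in Gm43205 and chr10:82165350-82165649 in Gm47573, all on the plus strand of the repeat and of the gene. The RLTR45 copy stayed under 1 scaled read, with 0.246 at 48 h, against 0.849 at 0 h. The RLTR13B2 copy averaged 19.0 at 48 h, against 3.91 at 0 h, and the RLTR13D3A1 copy 18.5 at 48 h, against 27.8 at 0 h. Of the 41 other LTR copies that an exon covers whole, 30 begin with TG and 25 end with CA, the usual LTR ends, whereas none of the 5 short pieces beside ETn copies does either; 6.58% of promoter windows begin with TG.

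The last is the start of an internal part, with TGGCGCC in capitals, the letters that open the primer binding site for lysine tRNA in many retroviruses.
ERVB4_1-I_MM-int_dup91: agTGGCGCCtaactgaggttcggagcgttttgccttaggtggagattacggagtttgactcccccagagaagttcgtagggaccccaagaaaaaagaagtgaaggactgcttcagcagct
It covers chr7:142283326-142283445 on the plus strand, in the lincRNA Gm45889, and the copy averaged 4.80 scaled reads at 48 h, against 6.86 at 0 h. Of 24 internal copies whose first 120 bases lie in an exon, 5 hold these letters there. They stand on either strand in 1.26% of promoter windows of 120 bases.

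Summed over all members, labelled RNA was higher than at 0 h from 12 h on and highest at 48 h. The 3 libraries held 7466, 8086 and 7584 scaled reads at 0 h, 7063, 6327 and 7204 after 3 h, 11776, 15756 and 13278 after 12 h, 16962, 21500 and 16532 after 24 h, and 24403, 26427 and 25492 at 48 h. All libraries at 12, 24 and 48 h lay above all at 0 h. At 3 h the direction turned with the scaling: the sums as deposited lay below all at 0 h, whereas after rescaling each library on its genes they were 7795, 7561 and 7325 at 3 h, against 7212, 7094 and 7238 at 0 h. The share of members among the reads in repeat copies was 1.09% to 1.10% at 3 h, against 1.06% to 1.08% at 0 h. The log2 ratio of the 48 h mean to the 0 h mean was 1.72. That share was 1.66% to 1.67% at 48 h.

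The ratio of 48 h to 0 h ranged widely between the 4 stems, whose sums are given without a test. RLTR45 names held 8369, 8891 and 8773 scaled reads at 48 h, against 803, 866 and 727 at 0 h, a ratio of 10.9. ERVB4 names held 2098, 2188 and 2079 at 48 h, against 356, 405 and 374 at 0 h, a ratio of 5.61. RLTR13 names held 13468, 14806 and 14142 at 48 h, against 5990, 6457 and 6076 at 0 h, a ratio of 2.29. RLTR44 names held 467, 542 and 498 at 48 h, against 317, 359 and 406 at 0 h, a ratio of 1.39, still with no overlap between the times. RLTR45 therefore went to 34.1% of member signal at 48 h, against 10.4% at 0 h, and RLTR13 to 55.6%, against 80.1%. For scale, the ratio of 48 h to 0 h was 54.0 for MMERVK10C-int, 16.7 for IAPEz-int, 4.14 for ETnERV-int, 2.74 for names starting MMERVK9 or RLTR9 and 2.06 for MMETn-int.

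**Figure D1:**
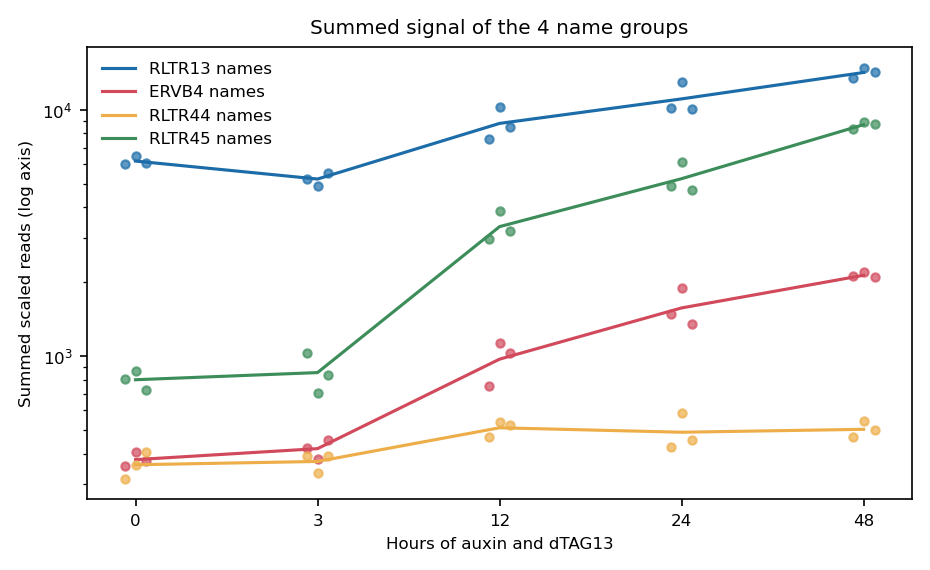
Summed scaled reads (log axis) of the RLTR13, ERVB4, RLTR44 and RLTR45 names at 0, 3, 12, 24 and 48 h, evenly spaced; points are the 3 libraries of a time and lines join their means. RLTR45 ends at 8678 scaled reads at 48 h, against 799 at 0 h, while RLTR44 stays between 361 and 510.

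Each name was then summed over its copies and tested against 0 h with limma on log2(value + 1), Benjamini-Hochberg adjusted over all 774 repeat names with a mean of at least 10; 36 of the 39 member names reached that mean, and ERVB4_3-I_MM-int, ERVB4_3-LTR_MM and RLTR13D3A did not. At 3 h 2 of the 36 names rose, where 1.55% of all tested names rose and 1.94% fell. At 12 h 29 rose (32.9% of all names rose, 0.388% fell), at 24 h 25 (24.4% and 1.03%) and at 48 h 25 (23.4% and 4.91%). No member name fell at any of these times. The median change of the 36 names at 48 h was 0.87 on the log2 scale, beside 0.01 for all tested names. The 25 names at 48 h were 13 of 22 RLTR13, 6 of 6 ERVB4, 4 of 6 RLTR44 and 2 of 2 RLTR45 names. The deposited scaling put the median gene at -0.37 (log2) at 48 h, and after rescaling on genes 34 of the 36 names rose at 48 h, where 63.7% of all names rose and 1.55% fell. Calls at 48 h for 7 names with changes of 0.45 to 1.01 (RLTR13A2, RLTR13C1, RLTR13D, RLTR13D2, RLTR44A, RLTR44B and RLTR44E) were lost when 1 or another library was left out.

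Between neighbouring times, 35 of the 36 names rose at 12 h against 3 h, where 77.8% of all names did. Of the 36, 9 rose further at 24 h against 12 h (6.85% of all names, while 2.71% fell) and 6 rose further at 48 h against 24 h (4.01%, while 0.388% fell). The last 6 were ERVB4_1B-I_MM-int, RLTR45-int, RLTR45, RLTR13B1, RLTR13B2 and RLTR13E. No member name fell in any of these 3 intervals. The intervals were tested on the deposited scaling only, and the step from 3 h to 12 h depends on it. As deposited, the summed members averaged 13603 scaled reads at 12 h, against 6865 at 3 h. After rescaling on genes they averaged 11131 at 12 h, against 7560 at 3 h.

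**Figure D2:**
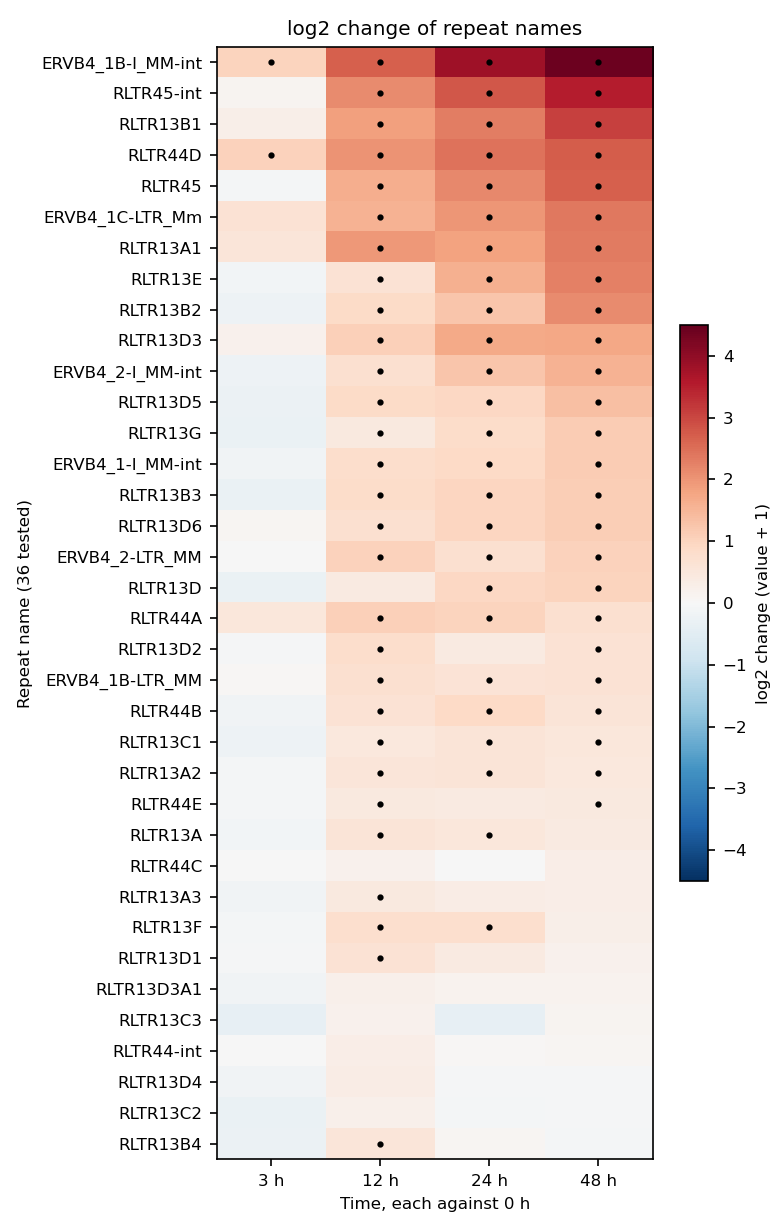
log2 change of scaled reads plus 1 against 0 h for the 36 tested names, ordered by the change at 48 h; dots mark limma adjusted p under 0.05. ERVB4_1B-I_MM-int is at the top with 4.40 at 48 h, and 11 names have no call at 48 h.

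Among internal parts, ERVB4_1B-I_MM-int rose most and earliest. Its 130 copies summed to 51.2, 69.0 and 56.6 scaled reads at 0 h, 136, 82.7 and 142 after 3 h, 266, 472 and 461 after 12 h, 784, 1074 and 710 after 24 h, and 1244, 1307 and 1229 at 48 h. All libraries at each later time lay above those at 0 h. The log2 change was 0.99 at 3 h (SE 0.14, limma adjusted p 4.65e-10) and 4.40 at 48 h (SE 0.14). Much of the rise at 3 h lay in a single copy, ERVB4_1B-I_MM-int_dup998. This copy averaged 47.7 scaled reads at 3 h, against 8.07 at 0 h, and its libraries of these times overlapped. The whole name averaged 120 at 3 h, against 58.9 at 0 h. At 48 h the same copy held 29.6% of the name's signal, and the top 3 copies held 61.9%. RLTR45-int, with 457 copies the most numerous internal name, held 677, 734 and 617 at 0 h, 901, 603 and 712 after 3 h, 2649, 3412 and 2804 after 12 h, 4416, 5422 and 4208 after 24 h, and 7605, 8098 and 7928 at 48 h. It had no call at 3 h (0.11, SE 0.12, limma adjusted p 0.489) and a change of 3.54 (SE 0.12) at 48 h. ERVB4_2-I_MM-int rose by 1.58 (SE 0.14) and ERVB4_1-I_MM-int by 1.15 (SE 0.22) at 48 h. RLTR44-int held 213, 234 and 239 at 48 h, against 194, 204 and 245 at 0 h, overlapping values with a change of 0.10 (SE 0.15, limma adjusted p 0.681). The untested ERVB4_3-I_MM-int summed to 15.5, 18.6 and 23.7 at 48 h, against 2.44, 0.832 and 0.857 at 0 h.

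Among LTRs, RLTR13B1 and RLTR45 had the largest changes of the names with over 100 copies. RLTR13B1 held 724, 823 and 785 scaled reads at 48 h, against 78.8, 101 and 94.3 at 0 h, so that its change was 3.08 (SE 0.14, log2). RLTR45 held 764, 793 and 845 at 48 h, against 126, 132 and 110 at 0 h, a change of 2.70 (SE 0.14). Neither overlapped between the times. RLTR13E rose by 2.25 (SE 0.13) and RLTR13B2 by 2.12 (SE 0.14), while RLTR13A3, RLTR13C2 and RLTR13B4 had 0.29 (SE 0.16), -0.05 (SE 0.14) and -0.08 (SE 0.18) with no call; rescaling on genes turned the last 2 to 0.31, with a call, and 0.27. RLTR13D3A1 held 359, 373 and 406 at 48 h, against 340, 343 and 336 at 0 h, with no overlap but a change of only 0.16 (SE 0.14, limma adjusted p 0.436). Among the small RLTR44 LTRs, RLTR44D held 85.7, 89.9 and 80.2 at 48 h, against 10.6, 17.5 and 9.43 at 0 h, and rose by 2.72 (SE 0.21). It was also the other name called at 3 h, with 26.3, 22.3 and 28.7 and a change of 1.03 (SE 0.21, limma adjusted p 0.000189).

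RLTR13G was by far the most abundant member at 0 h, with 3905, 4253 and 3913 scaled reads, 3276, 3103 and 3396 after 3 h, 4657, 6484 and 5227 after 12 h, 6539, 8419 and 6368 after 24 h, and 8615, 9294 and 8935 at 48 h. It rose by 1.15 (SE 0.12) at 48 h and had no call at 3 h (-0.30, limma adjusted p 0.11). Its change was taken as the yardstick for the other 35 names, by a limma fit of each library's log2 difference from RLTR13G. At 48 h 11 of the 35 changed more than RLTR13G and 17 less, where 9.06% of all names changed more and 84.2% less. Those above it were ERVB4_1B-I_MM-int, ERVB4_2-I_MM-int, ERVB4_1C-LTR_Mm, RLTR45-int, RLTR45, RLTR44D, RLTR13A1, RLTR13B1, RLTR13B2, RLTR13D3 and RLTR13E. The difference was 3.25 (SE 0.12) for ERVB4_1B-I_MM-int and 2.39 (SE 0.07) for RLTR45-int. Against MMERVK10C-int, tested the same way, all 36 names changed less, as did 100% of the other names, ERVB4_1B-I_MM-int by -1.35 (SE 0.13) and RLTR45-int by -2.21 (SE 0.11). Against MMETn-int, a comparison added after the values had been seen, 11 names changed more and 16 less (9.57% and 82.1% of all names), and RLTR13G differed by 0.11 (SE 0.06, limma adjusted p 0.0616).

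The position of members beside other ERVK elements was not part of their choice, and it was looked at after the values were known, so it is given without tests. Each copy was sorted by the nearest ERVK copy on the same strand within 500 bp. Members beside ETn or MusD names or their LTRs (RLTRETN and ERVB7 names) numbered 359 and held 10559, 11554 and 10955 scaled reads at 48 h, against 4051, 4483 and 4091 at 0 h, 2.62 times as much. The 857 copies beside another member held 10243, 10944 and 10727 at 48 h, against 1606, 1733 and 1686 at 0 h, 6.35 times as much. The 30 copies beside MMERVK10C or its LTRs held 718, 707 and 653 at 48 h, against 24.4, 45.7 and 27.4 at 0 h, 21.3 times as much. The 47 copies beside names starting MMERVK9 or RLTR9 held 145, 143 and 145 at 48 h, against 102, 103 and 85.7 at 0 h, 1.49 times as much, and the 140 beside other ERVK names had 1.32 times as much. The 1844 copies with no ERVK copy that close held 2459, 2798 and 2729 at 48 h, against 1471, 1515 and 1474 at 0 h, 1.79 times as much. Of the 30 copies beside MMERVK10C, only 4 had a mean of at least 10. ERVB4_1B-I_MM-int_dup998 alone averaged 372 of their 692 scaled reads at 48 h. With that limit, the ratio was highest beside MMERVK10C, whose internal part itself had 54.0. Beside ETn or MusD names it was 2.62, where MMETn-int had 2.06 and ETnERV-int 4.14. Beside MMERVK9 it was lower than for isolated copies. Most of the signal beside ETn or MusD names was RLTR13G, with 8631 of 11023 scaled reads at 48 h and 3929 of 4208 at 0 h. Beside another member, RLTR45-int held 7754 of 10638 at 48 h and 649 of 1675 at 0 h. Position and repeat name therefore cannot be told apart in these sums over names, and the part of the neighbours in these values was not tested.

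Names differed in where their signal lay. Of RLTR13G signal, 96.5% at 48 h, against 97.6% at 0 h, came from 209 of its 323 copies that lie beside ETn or MusD names. Pieces of 200 to 280 bp, such as the first 2 sequences shown above, were 216 of the 323 copies and held 98.2% of the signal at 48 h, against 98.8% at 0 h. The ratio of 48 h to 0 h for those 209 copies was 2.20. The 92 isolated RLTR13G copies had a higher ratio of 3.07, but from only 146 scaled reads at 48 h, against 47.5 at 0 h. Of these 92, 1 had a mean of at least 10. RLTR13E had the opposite order: 33 copies beside ETn or MusD names gave 1127 scaled reads at 48 h, against 71.7 at 0 h, 15.7 times as much, and 94 isolated copies gave 152.5 at 48 h, against 118.7 at 0 h, or 1.29 times. Few of the 33 carried this, and 8 had a mean of at least 10. RLTR13E_dup148 averaged 371 at 48 h, against 32.0 at 0 h, and RLTR13E_dup575 245, against 3.99. For RLTR13B2, 19 copies beside ETn or MusD names gave 711 at 48 h, against 91.9 at 0 h, 7.74 times as much, and 97 isolated copies gave 161.9 at 48 h, against 104.1 at 0 h, or 1.56 times. For RLTR13A and RLTR13A2 the ratio was lower beside ETn or MusD names (0.675 and 0.929) than in isolated copies (1.97 and 1.73). These ratios rest on small sums. Beside ETn or MusD names RLTR13A held 21.2 at 48 h, against 31.4 at 0 h, and RLTR13A2 38.5, against 41.4. Their isolated copies held 48.4, against 24.5, and 78.6, against 45.4. Of the 7 names with at least 10 copies in each position, 4 had the higher ratio beside ETn or MusD names. Of ERVB4_1B-I_MM-int signal at 48 h, 47.2% came from 21 copies beside MMERVK10C names and 27.6% from 12 copies beside ETn or MusD names. Each share was largely 1 copy. ERVB4_1B-I_MM-int_dup998 averaged 372 of the 594 scaled reads beside MMERVK10C names, and ERVB4_1B-I_MM-int_dup678 280 of the 347 beside ETn or MusD names. Only 3 of the 21 and 2 of the 12 had a mean of at least 10. RLTR44D was 1 copy in the main: 93.5% of its signal at 48 h, against 75.5% at 0 h, came from a single copy that touches RLTR10C, an LTR counted above with MMERVK10C.

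**Figure D3:**
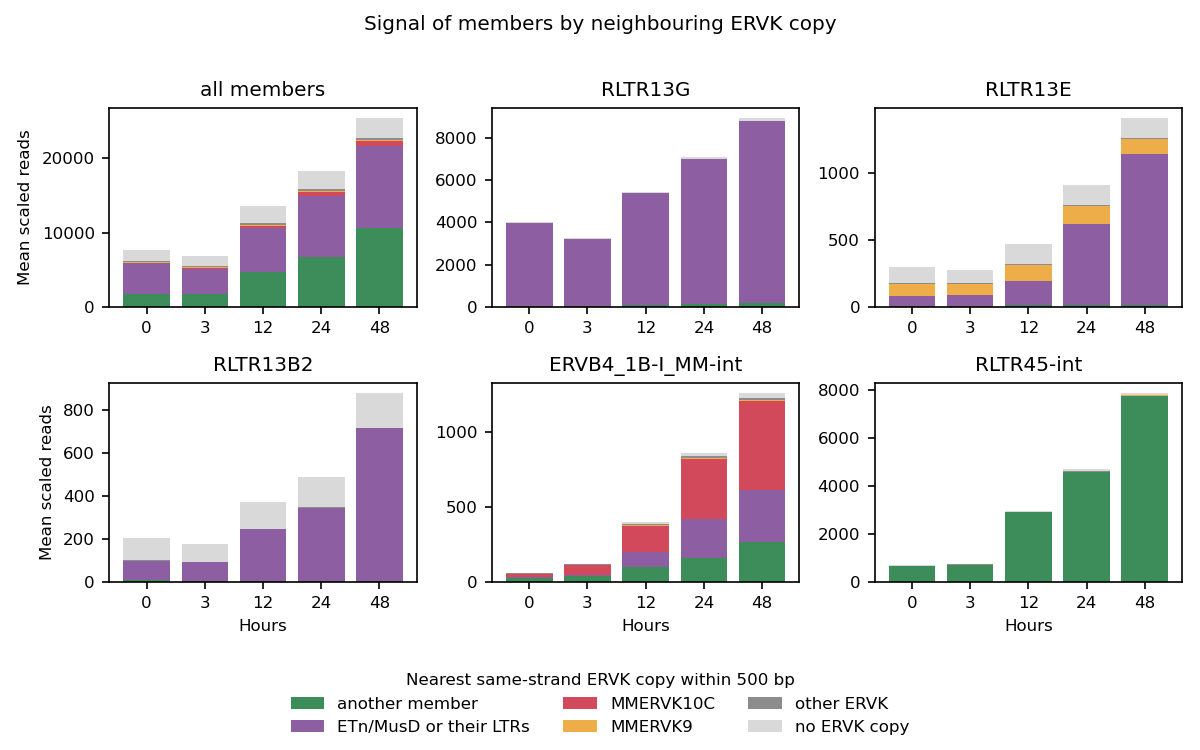
Mean scaled reads at 0, 3, 12, 24 and 48 h (3 libraries each), for all members and 5 names, stacked by the nearest same-strand ERVK copy within 500 bp. RLTR13G is almost wholly beside ETn or MusD names (96.5% at 48 h), whereas RLTR45-int is beside other members (98.4% at 48 h).

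The signal of RLTR45-int lay mostly among other members. Of its signal, 98.4% at 48 h, against 96.0% at 0 h, came from copies beside another member, other pieces of RLTR45-int included. For RLTR13B1, 27 copies beside another member gave 641 scaled reads at 48 h, against 39.5 at 0 h, 16.2 times as much. Its 86 isolated copies gave 127 at 48 h, against 43.4 at 0 h, 2.93 times as much. Joining same-strand members with gaps of at most 1000 bp gave 2619 loci, of which 2303 held 1 copy and the largest 10. The 10 loci with the largest increase held 48.8% of the net increase of 17729 scaled reads from all members.

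The first 7 of those 10 are long RLTR45-int loci with LTR pieces, on chromosomes 2, 15 and X, and the last 3 are single copies. Of these, RLTR13G_dup502 and RLTR13G_dup462, each 232 bp on X, had equal values in some libraries, such as 72.7 and 123 in the first and second at 12 h. How reads matching several copies were placed is not known, so their increases may not be separate. The locus chr2:50990938-50997304 on the plus strand, with RLTR45-int, RLTR13B1 and ERVB4_2-I_MM-int, held 3243, 3330 and 3187 scaled reads at 48 h, against 95.9, 101 and 117 at 0 h, and alone gave 17.8% of the net increase. The locus chr15:37072869-37080268 on the minus strand held 1.63, 1.66 and 0 at 0 h, 10.8, 3.18 and 0.775 after 3 h, 101, 127 and 131 after 12 h, 531, 605 and 497 after 24 h, and 1142, 1208 and 1168 at 48 h. It was thus nearly without signal at 0 h and had the second largest increase at 48 h. The 5 loci on X (starting at 3340799, 5112467, 5257708, 33850662 and 34546526) held 420 to 875 scaled reads on average at 48 h, against 11.0 to 26.9 at 0 h. Their ratios lay close together, from 29.8 to 38.2, next to 31.2 for the chromosome 2 locus. The same limit on reads matching several copies holds for these loci, so their ratios may not be separate observations.

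**Figure D4:**
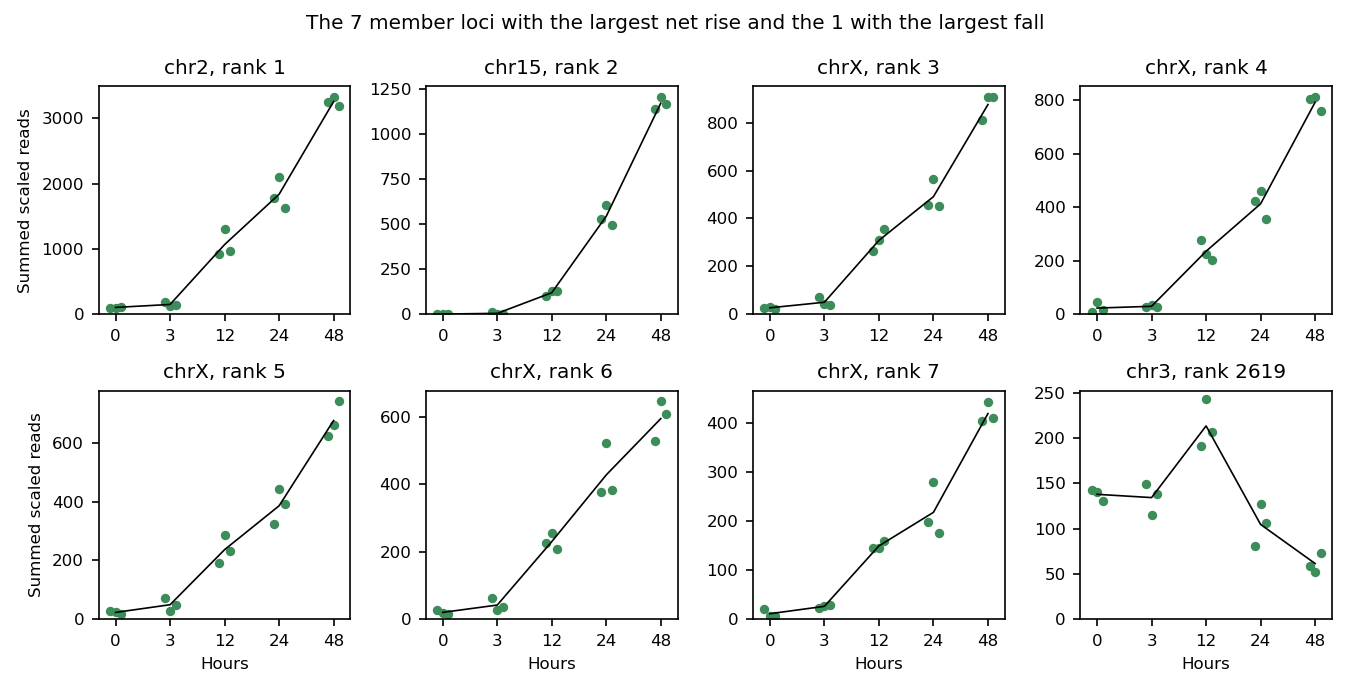
Summed scaled reads of members at the 7 loci with the largest net increase and the 1 with the largest decrease, by hours of treatment; points are libraries, lines join means, and each panel has its own vertical axis from 0. The chromosome 15 locus lies at or under 1.66 at 0 h, and the chromosome 3 locus peaks at 12 h and then falls.

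The X chromosome held 53.4% of the tested RLTR45 copies (31 of 58) and 14.4% of all RLTR45 copies, beside 4.02% of all tested repeat copies and 5.70% of all repeat copies. The test requires a mean of at least 10 over all times, which a copy can reach through its rise, so these shares describe the copies with signal. Of RLTR45 signal, 36.9% at 48 h, against 14.2% at 0 h, lay on X. Of the 43 tested members on X, 41 rose at 48 h and none fell; of the 152 elsewhere, 85 rose and 15 fell. Over all tested repeat copies, 53.7% of the 544 on X rose and 6.43% fell, beside 24.8% and 12.5% of the 12975 elsewhere. The 43 members come from 15 loci, 5 of which hold 29 of them, and pieces of 1 locus are not separate observations.

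Not all members were higher at 48 h. One RLTR45-int locus, chr3:93694347-93701756 on the minus strand, held 143, 141 and 130 scaled reads at 0 h, 150, 115 and 138 after 3 h, 191, 243 and 207 after 12 h, 80.6, 127 and 106 after 24 h, and 59.1, 51.9 and 73.4 at 48 h. It was above its 0 h values at 12 h and below them at 24 and 48 h. The RLTR44-int and RLTR44E locus chr8:11605722-11609073 held 132, 148 and 158 at 48 h, against 189, 224 and 250 at 0 h.

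Single copies were tested by the same limma fit over the 13519 repeat copies with a mean of at least 10. Of the 195 members among them, 6 rose at 3 h and 1 fell (2.5% and 0.266% of all tested copies). At 12 h there were 100 rises and 1 fall (20.8% and 1.83%), at 24 h 121 rises and 3 falls (25.4% and 6.25%), and at 48 h 126 rises and 15 falls (26% and 12.3%). Only 101 members had a mean of at least 10 at 0 h, so many of the 195 entered through their later, higher values. Of the 195, 21 had no read at 0 h at all. The counts therefore favour rises and hold for the copies with signal, not for all members. Without a minimum, 398 of 3246 copies with a read rose at 48 h while 15 fell, where 4.05% and 0.575% of all copies did; the 398 were 12.1% of all 3277 members and included 18.3% of the RLTR45 copies. Taking the minimum of 10 from the 0 h mean alone left 101 members, of which 28 rose and 13 fell at 48 h, beside 6.06% and 15.5% of all such copies, and their median change was -0.02, beside -0.34 for all such copies. With rescaling on genes the 195 gave 137 rises and 5 falls at 48 h (31.3% and 5.33% of all tested copies). In the authors' deposited table, 259 members were called up and 10 down at 48 h, beside 7934 (2.48%) and 1055 (0.33%) of all repeat copies.

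Of the 126 copies called up at 48 h, 98 (77.8%) had been called up at 12 h, beside 70.2% of all 3515 repeat copies called up at 48 h. Of the 195 copies, 149 overlap no annotated gene, 28 overlap a gene on their own strand and 18 a gene on the opposite strand only.

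**Figure D5:**
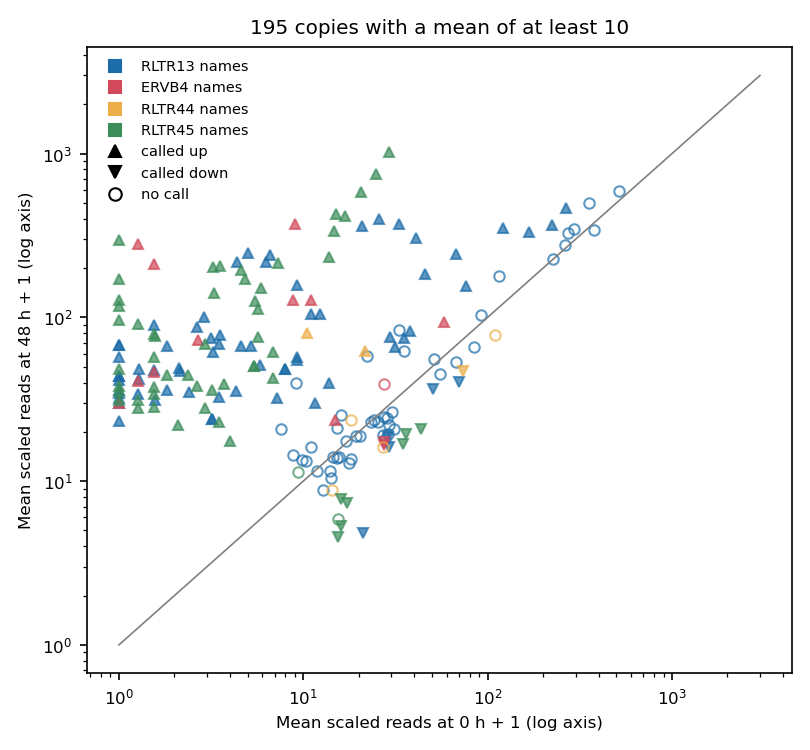
Mean scaled reads plus 1 at 48 h against 0 h (both axes log) for the 195 copies with a mean of at least 10, coloured by name stem; the line marks equal values and upward or downward triangles the limma calls. Copies called up sit mainly at the left, where 21 had no read at 0 h, and the highest RLTR13 copies at 0 h lie near the line.

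The copies that rose most were in part pieces of the chromosome 15 locus. RLTR45-int_dup1204 (chr15:37075562-37078027, minus strand), in no annotated gene, held 281, 305 and 296 scaled reads at 48 h and no read in the 3 libraries at 0 h, at least 352-fold higher, taking 3 reads over the 0 h group as the floor. Its neighbours RLTR45-int_dup1208 and RLTR45-int_dup1203 also had no read at 0 h and were at least 204-fold and 152-fold higher at 48 h. ERVB4_2-I_MM-int_dup271 in the same locus held 219, 218 and 194 at 48 h, against 0, 1.66 and 0 at 0 h, from 2 reads, a ratio of 379 with an exact 95% counting interval of 104 to 3132.

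ERVB4_1B-I_MM-int_dup678, a piece of 241 bp on X (chrX:33386889-33387129, minus strand) 108 bp from ETnERV2-int, was already up at 3 h. It held 0, 0.832 and 0 scaled reads at 0 h, 12.2, 4.45 and 3.10 after 3 h, 53.3, 72.8 and 78.1 after 12 h, 193, 231 and 194 after 24 h, and 286, 296 and 258 at 48 h. Its change at 3 h was 2.44 (SE 0.35, limma adjusted p 0.00084), and with only the 0 h and 3 h libraries in the fit the limma adjusted p was 0.168. The same fit of 2 times ended the 3 h calls of RLTR44D_dup75, RLTR13G_dup625 and RLTR45-int_dup576 as well (limma adjusted p 0.228, 0.118 and 0.312), so the early rises of single copies rest on a spread estimated from all times. RLTR44D_dup75 (chr11:120761333-120761534, plus strand), the copy behind the RLTR44D sum, lies 1260 bp from the start of Hmga1b, whose product is a chromatin protein, and held 79.8, 87.5 and 71.8 at 48 h, against 8.13, 13.3 and 6.86 at 0 h.

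The RLTR13 copy that rose most was RLTR13E_dup575, 229 bp on chromosome 18 beside the ETn LTR RLTRETN_Mm. It held 0.813, 0 and 11.1 scaled reads at 0 h, 4.73, 0 and 9.31 after 3 h, 6.76, 6.37 and 0.877 after 12 h, 86.4, 137 and 116 after 24 h, and 221, 280 and 233 at 48 h. Its rise came after 12 h, with a change of 6.45 (SE 0.89, limma adjusted p 2.24e-05) at 48 h. RLTR13G_dup805 (chr17:32375881-32376112, plus strand), the highest member at 0 h, lies in an intron of the lincRNA Gm26858, opposite to Wiz, and held 615, 652 and 497 at 48 h, against 505, 603 and 445 at 0 h, which overlapped (0.19, SE 0.19, limma adjusted p 0.498). Of the other copies highest at 0 h in their stem, ERVB4_2-I_MM-int_dup231 held 97.5, 89.9 and 89.4 at 48 h, against 54.5, 55.7 and 60.9 at 0 h, and rose by 0.69 (SE 0.18). RLTR45-int_dup222, part of the chromosome 3 locus, held 15.5, 20.1 and 23.7 at 48 h, against 44.7, 45.7 and 37.7 at 0 h, and fell by 1.09 (SE 0.24, limma adjusted p 0.00155). RLTR44-int_dup150 held 72.4, 70.5 and 88.6 at 48 h, against 88.6, 106 and 132 at 0 h, with no call at -0.48 (limma adjusted p 0.051).

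The 3 copies that fell most at 48 h were RLTR13G_dup84, RLTR45-int_dup225 and RLTR45-int_dup227. RLTR13G_dup84 held 1.48, 10.1 and 0 scaled reads at 48 h, against 22.8, 16.6 and 20.6 at 0 h, a change of -2.79 (SE 0.83, limma adjusted p 0.0146) with limma adjusted p 0.08 once the third 48 h library was left out. The other two, of the chromosome 3 locus, changed by -1.64 (SE 0.40) and -1.53 (SE 0.41).

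The genes that act on such repeats in stem cells were read as a list of 38 silencing factors, 36 of them measured. None rose and 29 fell at 48 h, where 7.65% of all genes rose and 58.4% fell. The list's median of -0.42 stood beside -0.37 for all genes. After rescaling on genes 8 rose and 14 fell. The shares of all genes at that scaling are not given here, so the rescaled counts have no background beside them. Trim28, the corepressor that KRAB zinc finger proteins bind, held 1820, 2153 and 2033 scaled reads at 48 h, against 3113, 3428 and 2958 at 0 h, a change of -0.66 (SE 0.12). Ehmt2, a methyltransferase that places H3K9 dimethylation, changed by -0.71 (SE 0.13). Cbx1, which codes for the H3K9-methyl binding protein HP1 beta, changed by -0.64 (SE 0.12) and Pcgf6, a Polycomb subunit, by -0.61 (SE 0.13). After rescaling on genes the changes were smaller: -0.30 for Trim28, -0.35 for Ehmt2, -0.27 for Cbx1 and -0.25 for Pcgf6. Cell state markers moved over the same times. Of 10 embryonic stem cell markers 9 fell and Zfp42 rose at 48 h, and Pou5f1 averaged 461 scaled reads at 48 h, against 974 at 0 h. Of 7 markers of 2-cell-like cells, 5 were measured and rose, and the 7 summed to 1542 to 1879 at 48 h, against 55.3 to 64.3 at 0 h. Of 6 fibroblast markers, 5 rose and Thy1 fell, with sums of 388 to 542 at 48 h, against 285 to 359 at 0 h. Of 4 primitive endoderm and 5 trophectoderm markers measured, 1 and 2 rose and 0 and 3 fell. After rescaling on genes, 3 and 2 of these rose and 0 and 1 fell at 48 h, while the counts of the other marker lists did not change. No marker of these lists was at 0 in every library; their part in the rise of the repeats was not tested, and fewer cells of a type and less RNA per cell cannot be told apart in these bulk samples.

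The repeat names outside the members whose mean course over the 5 times was most like that of the summed members were IAPLTR4_I (Pearson r 0.9990), RLTR6B_Mm (0.9984), RLTR6-int, RLTR10 and IAPLTR2_Mm (0.9973 each). These r values describe 5 means from the same libraries on the log2(value + 1) scale.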

How the data were processed

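Nascent RNA of 15 libraries (5 times, 3 each, every library sequenced in 2 runs) was measured by TT-seq. The submitters' processing notes name STAR 2.5.2a, DESeq2, deepTools and the builds mm10 and GRCm38. The deposited values are signal: reads per unit that the authors divided by 1 size factor per library, without length normalization. Between 99.9972% and 99.9995% of nonzero values per library were whole multiples of the smallest step within 0.05, so whole reads were recovered. A further deposited table by the authors gives other entries, namely calls of up, down or no change for a unit, used only where named. Yeast RNA was spiked in (1 µg to 110 µg of total RNA, per the labels' protocols) to adjust between times; how the size factors were computed, the counter, its strand setting and its treatment of multiple matches are not given in any source used. Repeat starts count from 0 in the table and are printed from 1.

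The main test was limma 3.58.1 (R 4.3.3) with trend on log2(value + 1), all 15 libraries, each time against 0 h, minimum mean 10, with 2-sided p-values, Benjamini-Hochberg adjusted over all 774 repeat names, 13519 copies or 15261 genes, with a threshold of 0.05. Alternatives were other pseudocounts, minimums, scalings and designs, edgeR 4.0.16 and DESeq2 1.42.0 on recovered reads, and leaving out each library. Copies were named by rule: 5 that rose and 3 that fell most at 48 h, the top riser per stem, 3 top risers at 3 h and the highest at 0 h per stem. Members and lists were chosen with earlier results of these data known. Whether repeats of a time came from separate cultures is not stated beyond "biological", so p-values measure the spread between these libraries. Intervals and floors cover counting error only. The same replicate numbers did not pair the libraries.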

Additional observations from a re-analysis of the deposited data

How the results depend on the processing

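Counts of called names and copies, rises and falls together, kept within 1.5 times the reported count except as follows. For names, the 2 calls at 3 h became 5 with DESeq2, with edgeR (TMM) and with rescaling on genes and 1 with a minimum mean of 50; the 29 at 12 h became 16 with DESeq2, 17 with edgeR (TMM) and 19 with a minimum of 50; the 25 at 24 h and the 25 at 48 h became 15 each with a minimum of 50, which leaves 23 names to test. For copies, the 7 at 3 h became 16 with DESeq2, 15 with rescaling, 11 with a pseudocount of 0.5, 3 with one of 4, 3 with no minimum, 2 with edgeR on the deposited size factors, and 1 with a minimum of 10 at 0 h or with the 2 times alone. With a minimum of 10 at 0 h the 101 at 12 h became 17, the 124 at 24 h became 29 and the 141 at 48 h became 41; with a minimum of 50 they became 35, 40 and 43; with no minimum the last 2 became 272 and 413. These minimums change which copies are tested; the cause of the other changes was not tested.

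Leaving out 1 library gave 2 to 3, 21 to 30, 22 to 26 and 20 to 24 names and 3 to 11, 80 to 94, 117 to 122 and 135 to 137 copies at 3, 12, 24 and 48 h, and 27 to 29 differences from RLTR13G at 48 h. The 7 copies at 3 h became 4 when the first 0 h library was left out, 3 when the first and 11 when the second 3 h library was. The sign of uncalled changes at 48 h turned with rescaling for RLTR13B4 (0.27), RLTR13D4 (0.32) and RLTR13C2 (0.31, which then passed). Over the fits that each lacked 1 library, it also turned for RLTR13C2 (-0.11 to 0.015), RLTR13C3 (-0.010 to 0.26) and RLTR13D1 (-0.12 to 0.41).

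With the replicate number as a block, 2, 29, 25 and 25 names and 6, 98, 125 and 141 copies were called at 3, 12, 24 and 48 h. Deviations of libraries with the same number correlated between -0.06 and 0.15 over copies, so the numbers were not taken to pair the libraries. Differences from MMETn-int in place of RLTR13G gave 27 calls, and counting only copies not identical to another gave 7, 97, 120 and 137, both chosen after seeing the data. Depth limits the 3082 copies with a mean under 10, of which single changes were mostly not detectable.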
